A study of Mus musculus with 18 samples.

Results

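The comparison was between mouse hepatocytes given an siRNA against Ttr together with the REVERSIR directed at that siRNA, and hepatocytes given the same siRNA together with a scrambled control REVERSIR. Its members were chosen by the sample titles alone and are 6 of the 18 libraries, 3 in each group. The cells were hepatocytes of male CD-1 mice, cryopreserved and plateable, and every library held total RNA sequenced for gene expression. The 4 further groups of 3 libraries received TTR REVERSIR alone, scrambled REVERSIR alone, the siRNA alone, or PBS (phosphate-buffered saline, the vehicle). Both groups compared therefore carried the siRNA and an oligonucleotide of the REVERSIR kind, and differed in the sequence of the REVERSIR. The sources used here give no dose, time of exposure, age of the mice or number of donors. The labels do not say whether libraries of 1 group are from separate cultures or animals, so the p-values measure only the spread between these libraries, which may be technical.

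A short interfering RNA works through the RNA-induced silencing complex, in which an Argonaute protein holds the guide strand and directs the complex to matching messenger RNA. A conjugate with N-acetylgalactosamine is taken up by hepatocytes through the asialoglycoprotein receptor. REVERSIR compounds are short synthetic oligonucleotides that pair with the guide strand of a given siRNA, designed to block that strand and so end silencing. Transthyretin, the protein made from Ttr, is a hepatocyte secreted carrier of thyroxine and, in complex with retinol binding protein 4, of retinol.

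The siRNA + TTR REVERSIR libraries held 8955917, 6130900 and 7576700 counts over genes, and the siRNA + scrambled REVERSIR libraries 10145265, 8707999 and 5381532. The other 12 libraries held 1755819 to 8075490. Mitochondrial ribosomal RNA took 2.05%, 4.73% and 6.69% of counts with the TTR sequence, against 9.56%, 2.34% and 2.69% with the scrambled one. Among the 6 libraries, Spearman correlations of gene levels had a median of 0.9945 over the 6 pairs within a group, and the same median, 0.9945, over the 9 pairs between groups. The title was followed for siRNA + scrambled REVERSIR replicate 2, whose deposited file carries another replicate number. Levels are given as CPM (counts scaled to a common library size), computed from the deposited counts with library sizes scaled by TMM, a method that makes most genes equal on average between libraries. In bulk RNA, fewer cells of a type and less RNA per cell cannot be told apart.

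Ttr was the single gene past the threshold. Its level was 4.66-fold higher in siRNA + TTR REVERSIR than in siRNA + scrambled REVERSIR cells, and it was the only one of 11153 genes tested (0.00897%) past an adjusted p of 0.05. The gene (ENSMUSG00000061808) is protein coding and lies on the plus strand of chromosome 18, from 20823751 to 20832825 in build NCBIM37. Its exons share bases with Gm16090, an annotated processed transcript on the minus strand that had 0 or 1 count in each of the 6 libraries.

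Raw Ttr counts were 11349, 6397 and 7597 in siRNA + TTR REVERSIR libraries and 2265, 2080 and 1303 in siRNA + scrambled REVERSIR libraries. As CPM, Ttr stood at 1182, 1001 and 978 with the TTR sequence, against 227, 225 and 226 with the scrambled sequence. The groups did not overlap, and the lowest library with the TTR sequence was far above the highest with the scrambled one. The means were 1054 ± 112 CPM with the TTR sequence and 226 ± 0.690 CPM with the scrambled one (SD, n = 3 each), a log2 difference of 2.22 ± 0.0935 (SE) with a 95% interval of 2.03 to 2.41 and an adjusted p of 4.05e-14 (edgeR quasi-likelihood test, Benjamini-Hochberg). An exact two-sided permutation test of the CPM values gave p = 0.1, the smallest that 3 libraries against 3 allow. The 3 scrambled values lay closer together than counting error alone gives for 1 of them, which was 4.77 to 6.27 CPM per library.

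**Figure D1:**
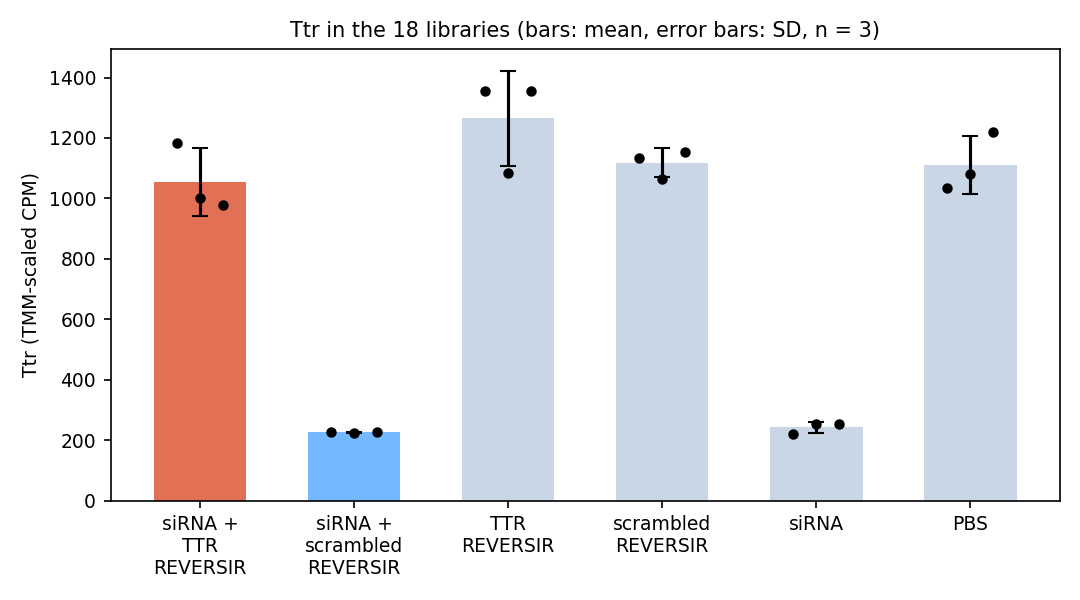
Ttr level in all 18 libraries, in TMM-scaled CPM. Points are libraries, bars group means and error bars the SD of 3 libraries. The 3 siRNA + TTR REVERSIR libraries lie between 978 and 1182 CPM, those of siRNA + scrambled REVERSIR between 225 and 227 CPM, and those with siRNA alone between 220 and 254 CPM.

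The other groups place these levels. Ttr averaged 1265 ± 157 CPM with TTR REVERSIR alone, 1118 ± 47.6 CPM with scrambled REVERSIR alone, 243 ± 19.1 CPM with siRNA alone and 1111 ± 96.8 CPM with PBS (SD, n = 3 each). Set against the PBS mean, Ttr was at 94.8 ± 10.1% in siRNA + TTR REVERSIR cells and at 20.3 ± 0.0622% in siRNA + scrambled REVERSIR cells. In these and the next percentages the SD is that of the 3 libraries over a fixed reference. It leaves out the spread of the reference, and the PBS libraries had an SD of 8.71% of their own mean. PBS replicates 1 and 2 stand apart, with 24.3% and 24.1% of counts in mitochondrial ribosomal RNA and TMM factors of 0.747 and 0.758. With library totals in place of TMM, the siRNA + TTR REVERSIR level was 117 ± 15.05% of the PBS mean and the siRNA + scrambled REVERSIR level 24.8 ± 1.07%, so that the first lies below or above PBS with the scaling. Against PBS replicate 3 alone, with TMM, Ttr was at 86.4 ± 9.18% in siRNA + TTR REVERSIR cells and 18.5 ± 0.0566% in siRNA + scrambled REVERSIR cells. Set against the mean of TTR REVERSIR alone, the siRNA + TTR REVERSIR level was 83.3 ± 8.85%, and its libraries (978 to 1182 CPM) overlapped those of TTR REVERSIR alone (1083 to 1357 CPM). The siRNA + scrambled REVERSIR level lay within the range of the siRNA alone libraries, 220 to 254 CPM.

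On a scale corrected for transcript length, Ttr had 2008 ± 308 TPM (a level per transcript length, SD, n = 3) in siRNA + TTR REVERSIR cells and 407 ± 30.3 TPM in siRNA + scrambled REVERSIR cells. Among protein coding genes it ranked 40th, 41st and 43rd by TPM with the TTR sequence, against 237th, 243rd and 242nd with the scrambled sequence. Silenced Ttr was thus still a well expressed message.

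The difference did not rest on the scaling by all genes. Per 100 reads of Alb, the gene of serum albumin, Ttr had 2.53 ± 0.149 reads with the TTR sequence and 0.536 ± 0.00602 reads with the scrambled one (SD, n = 3 each), a ratio of 4.71. Per 100 reads of Apoa1, the main apolipoprotein of high density lipoprotein, Ttr had 52.1 ± 5.93 reads with the TTR sequence and 11.01 ± 0.0263 with the scrambled one, a ratio of 4.73. Per 100 reads of Rbp4, retinol binding protein 4, it had 136 ± 32.1 reads with the TTR sequence and 25.6 ± 2.46 with the scrambled one, a ratio of 5.30. The groups did not overlap in any of these 3 ratios, and each exact permutation p was 0.1.

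No gene besides Ttr passed. The next smallest adjusted p in edgeR was 0.817, while 242 genes (2.17%) had an unadjusted p under 0.05, 138 higher and 104 lower. That share lay below the threshold of 0.05 itself, so the test may be conservative for these 6 libraries. In the same fit the share was 7.33% for the TTR against the scrambled sequence without siRNA. The reason was not tested. DESeq2 and limma voom also called Ttr alone, with 107 and 323 genes at an unadjusted p under 0.05. With no filter on low counts edgeR called 35 of 20065 genes, 27 higher and 8 lower. Of these 35 genes, 20 were annotated as small nucleolar RNAs. Groups did not overlap for 1039 genes (9.32%), 527 of them higher (4.73%) and 512 lower (4.59%). The median size of the log2 difference over all genes was 0.067 and the median SE was 0.116.

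The depth of these libraries bounds what else can differ. The 95% interval of the difference lay within 1.5-fold in either direction for 9115 genes (81.7%) and within 2-fold for 10666 genes (95.6%). Precision was lower at low levels: the share within 1.5-fold was 99% for genes at a mean log2 CPM over 7, 99.7% from 5 to 7, 95.2% from 3 to 5, 36% from 1 to 3, and 0% under 1. Under a mean log2 CPM of 1 the interval lay within 2-fold for 36% of genes, so that differences of that size were mostly not resolved at this depth.

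**Figure D2:**
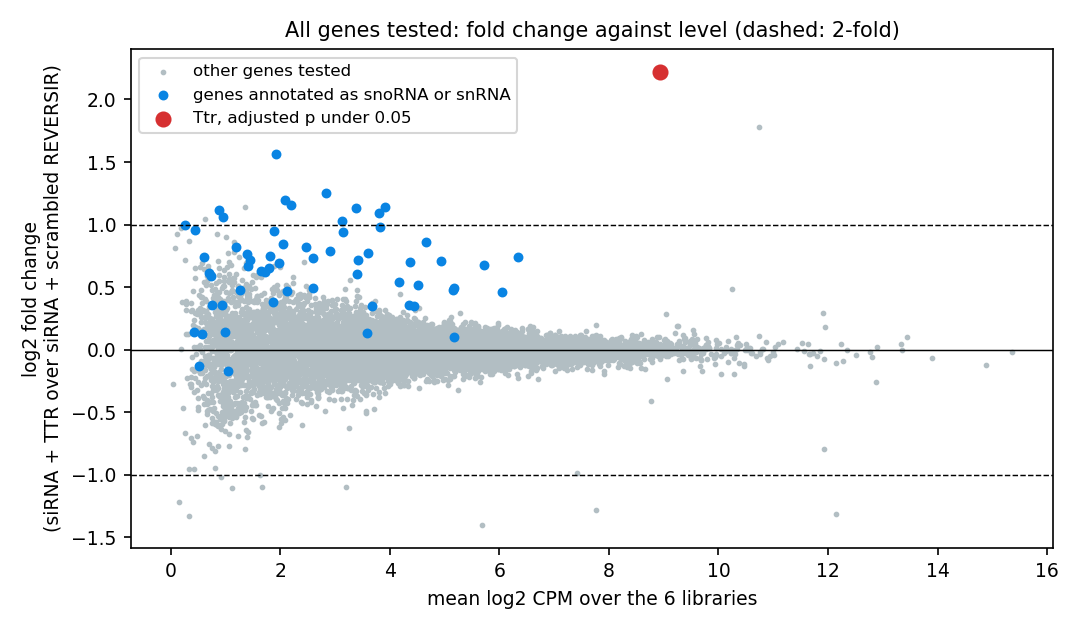
Log2 fold change of siRNA + TTR REVERSIR over siRNA + scrambled REVERSIR (vertical) against the mean log2 CPM over the 6 libraries (horizontal) for the 11153 genes tested. Dashed lines mark 2-fold. Ttr stands apart at 2.22, and most genes annotated as small nucleolar or small nuclear RNA (blue) lie above 0.

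Of 4800 genes whose mean log2 CPM reached 5, 9 differed by over 1.5-fold and 5 by over 2-fold. Besides Ttr, those past 2-fold were AY036118 (a pseudogene, log2 difference 1.78 ± 1.8, SE), mmu-mir-2134-4 (-1.40 ± 0.778), Lars2 (-1.31 ± 1.14) and mmu-mir-689-2 (-1.28 ± 0.898). Lars2, the mitochondrial leucyl-tRNA synthetase, had 4053, 2707 and 2660 CPM with the TTR sequence, against 11499.5, 9161 and 2759 CPM with the scrambled one. Its groups overlapped, and none of these 4 genes passed the test. Lars2 counts also varied widely between replicates of other groups. They were 97.6, 37487.5 and 35530 CPM with scrambled REVERSIR alone, and 63118, 62912 and 833 CPM with PBS. The reason was not tested, so these counts may not measure the level of this message.

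Retinol and thyroid hormone handling is the setting in which transthyretin acts. Of the 18 genes of this list tested besides Ttr, none passed in edgeR, 0 had an unadjusted p under 0.05, and the median log2 difference was -0.0406, against 0.000812 over all genes. Rbp4, the partner of transthyretin in retinol transport, had 684, 829 and 856 CPM in siRNA + TTR REVERSIR libraries and 941, 927 and 794 CPM in siRNA + scrambled REVERSIR libraries. The groups overlapped, and the log2 difference was -0.17 ± 0.127 (SE), with an interval of -0.43 to 0.09. Serpina7, the thyroxine binding globulin, had 181, 150 and 180 CPM with the TTR sequence, against 164, 168 and 207 CPM with the scrambled one, which also overlapped. The 2 members with the smallest p, Rdh16 (a retinol dehydrogenase, log2 difference -0.49) and Thra (thyroid hormone receptor alpha, 0.45), had low levels of 1.39 to 2.90 CPM and share exon bases with Rdh18-ps and Nr1d1.

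The hepatocyte list held genes of secreted proteins and of liver transcription factors. Of its 30 members Ttr alone passed, and the other 29 lay between -0.13 (Foxa2) and 0.10 (Nr1h4) on the log2 scale. Alb was at 43860, 40625 and 40428 CPM in siRNA + TTR REVERSIR libraries and at 42175, 42551 and 41769 CPM in siRNA + scrambled REVERSIR libraries. Apob, the apolipoprotein of very low density lipoprotein, differed by -0.10 ± 0.080 (SE). Hnf4a, a transcription factor of hepatocyte identity, had 371, 376 and 347 CPM with the TTR sequence, against 370, 377 and 370 CPM with the scrambled sequence. The groups overlapped for all 29 members besides Ttr, while they did not overlap for 9.32% of all genes tested. The count is not shown to be particular to this list. Levels of the 29 ran from those of transcription factors such as Foxa2 to that of Alb. Foxa2 was at 15.1 to 22.4 CPM with the TTR sequence and 19.1 to 24.2 CPM with the scrambled one.

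Genes of the RNA interference machinery did not pass. All 21 members were tested, with a median log2 difference of -0.0302. Of these, 1 had an unadjusted p under 0.05, against 2.17% of all genes tested. That gene was Tarbp2, which encodes a double-stranded RNA binding partner of Dicer. Its levels were 10.1, 8.45 and 10.3 CPM in siRNA + TTR REVERSIR libraries and 13.6, 12.7 and 14.9 CPM in siRNA + scrambled REVERSIR libraries, which did not overlap. The log2 difference was -0.49 ± 0.156 (SE), with an unadjusted p of 0.0042 and an adjusted p of 1 in edgeR. Dicer1, the enzyme that makes small RNAs from double-stranded precursors, differed by -0.01 ± 0.0893 (SE), and Eif2c2, which encodes the slicing Argonaute protein, by 0.02 ± 0.118.

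Uptake and decay genes were also close to 0. Asgr1, the major subunit of the asialoglycoprotein receptor, had 171, 139 and 149 CPM with the TTR sequence, against 138, 150 and 153 CPM with the scrambled one. Asgr2, the other subunit, differed by 0.06 ± 0.0799 (SE) on the log2 scale. Of the 23 genes of the receptor and endolysosome list tested, none passed in edgeR. An unadjusted p under 0.05 was found for 1, against 2.17% of all genes tested. Of 25 genes of decapping, deadenylation and decay, none passed and 0 had an unadjusted p under 0.05. Xrn1, the cytoplasmic 5′ to 3′ exonuclease, differed by -0.10 ± 0.114 (SE).

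Genes that sense foreign nucleic acid or respond to interferon were 30 in number among those tested. None passed in edgeR, and 1 had an unadjusted p under 0.05, against 2.17% of all genes tested. Of the 30, 26 had a log2 difference below 0, with a median of -0.0616. Oas3, an oligoadenylate synthetase, had the largest, with 13.3, 10.95 and 14.7 CPM in siRNA + TTR REVERSIR libraries and 16.6, 16.04 and 17.5 CPM in siRNA + scrambled REVERSIR libraries. Its groups did not overlap and the log2 difference was -0.35 ± 0.150 (SE). Isg15, an interferon-induced ubiquitin-like protein, had 125, 96.4 and 121 CPM with the TTR sequence and 126, 117 and 128 CPM with the scrambled one, and Irf7, an interferon regulatory factor, differed by -0.10 ± 0.0670. These shifts were small, and for Isg15 the groups overlapped.

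Stress and metabolic lists gave no call in edgeR. The ER stress and integrated stress response list (28 genes) had a median of -0.0323, the p53 and apoptosis list (23) 0.0344, the acute phase list (25) -0.00325, and the oxidative stress and heat shock list (24) -0.000506. Within these, 0 genes had an unadjusted p under 0.05. Hspa5, the main chaperone of the endoplasmic reticulum, had 1237, 1215 and 1227 CPM in siRNA + TTR REVERSIR libraries and 1229, 1303 and 1320 CPM in siRNA + scrambled REVERSIR libraries, which overlapped. For xenobiotic metabolism (28 genes) the median was 0.0165, and Cyp3a11, a major drug-metabolising cytochrome P450, differed by 0.06 ± 0.0764 (SE). Cholesterol and fatty acid synthesis (24 genes) had a median of -0.0293, fatty acid oxidation (18) -0.0327, iron and heme handling (22) 0.0148 and cell cycle (10) -0.00864.

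Mitochondrially encoded messenger RNAs lay on one side of 0. Of 13 such genes 6 (mt-Nd3, mt-Nd4l, mt-Co2, mt-Co3, mt-Atp6 and mt-Atp8) were listed at 0 in all 18 libraries, although mt-Co1 was among the 10 most abundant genes, so their levels are not known from these counts. All 7 others had a positive log2 difference, from 0.09 (mt-Nd6) to 0.19 (mt-Nd4), and none had an unadjusted p under 0.05 in edgeR. Without siRNA the list median had the opposite sign, -0.18, against 0.13 with it. Summed over the list, the level was 15850, 16244 and 17063 CPM in siRNA + TTR REVERSIR libraries and 15324, 15683 and 14468 CPM in siRNA + scrambled REVERSIR libraries. Most of the sum was from mt-Co1, at 11516, 11415 and 11726 CPM with the TTR sequence, against 10816, 11082 and 10429 CPM with the scrambled one. The members with the smallest p, mt-Nd4 and mt-Cytb, had overlapping groups. The summed groups did not overlap, by a narrow margin. The share of mitochondrial ribosomal RNA given above ranged from 2.34% to 9.56% within the scrambled group. Its part in this was not tested beyond a fit with that share as a covariate, whose values for these genes are not reported here.

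Over all 21 lists, 378 genes besides Ttr were tested. None passed in edgeR, and 6 of the 378 had an unadjusted p under 0.05, against 2.17% of all genes tested. Among the 6 were Fasn, Oas3, Pdgfrb, Slco1a1 and Tarbp2. The median log2 difference of the 378 genes was -0.0125. Groups did not overlap for 35 of them (9.26%), against 9.32% of all genes tested. The 95% interval lay within 1.5-fold for 343 of the 378 genes (90.7%).

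**Figure D3:**
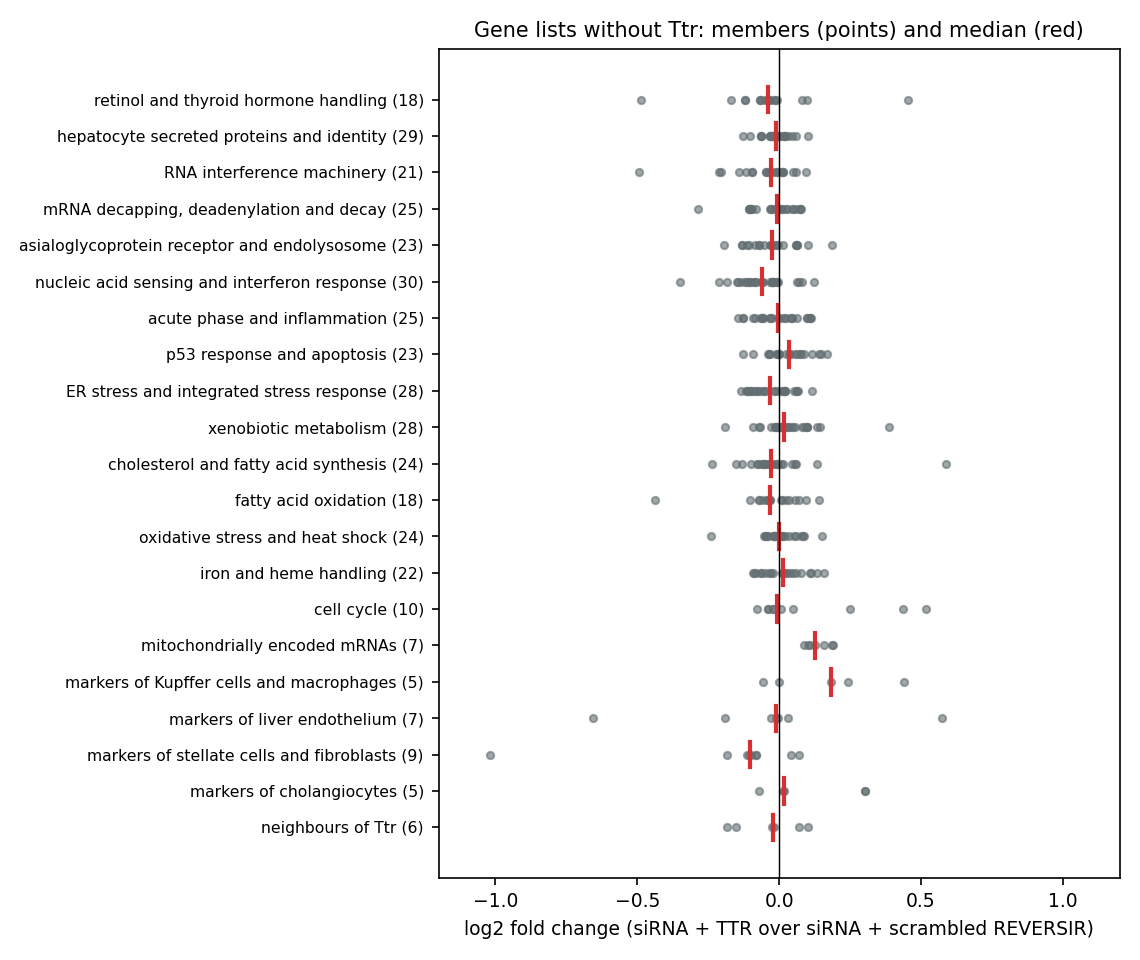
Log2 fold change of siRNA + TTR REVERSIR over siRNA + scrambled REVERSIR for the tested members of each gene list without Ttr. Points are genes, red bars list medians, and the number tested is in brackets. No list median lies beyond 0.183 in size.

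Markers of other liver cells were present at similar summed levels in both groups. Summed Kupffer cell and macrophage markers (5 of 14 tested) were at 318 to 357 CPM with the TTR sequence, against 330 to 342 CPM with the scrambled one, most of it from Cd68. Summed liver endothelium markers (7 of 13 tested) were at 58.7 to 62.7 CPM with the TTR sequence and 54.0 to 64.5 CPM with the scrambled one, most of it from Stab2. Summed cholangiocyte markers (5 of 10 tested) were at 142 to 168 CPM with the TTR sequence and 143 to 156 CPM with the scrambled one, most of it from Cldn4 (124 to 152 CPM with the TTR sequence and 128 to 137 CPM with the scrambled one), and Cftr was at 0 in all 6 libraries. Summed stellate cell and fibroblast markers (9 of 14 tested) were at 286 to 306 CPM with the TTR sequence and 301 to 313 CPM with the scrambled one. The highest of them was Vim, at 101 to 119 CPM with the TTR sequence and 112 to 120 CPM with the scrambled one. Reln was at 90.2 to 100 CPM with the TTR sequence and 97.7 to 110 CPM with the scrambled one. The ranges overlapped for all 4 sets, and none of their genes passed in edgeR. Pdgfrb, a receptor of stellate cells and pericytes, had 0.729, 1.56 and 1.03 CPM in siRNA + TTR REVERSIR libraries and 2.40, 1.84 and 2.26 CPM in siRNA + scrambled REVERSIR libraries, with an unadjusted p of 0.0065.

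None of the genes next to Ttr passed. Of 6 neighbours tested in edgeR, 0 had an unadjusted p under 0.05, and they ranged from -0.18 (B4galt6) to 0.10 (Rnf138) on the log2 scale. Dsg2, a desmosomal cadherin that also shares exon bases with Gm16090, had 119, 172 and 169 CPM with the TTR sequence, against 183, 172 and 154 CPM with the scrambled one, which overlapped.

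Below the threshold, the 10 higher and the 10 lower genes with the smallest p are given as values, not as changes. All had an adjusted p of at least 0.817, and the 2 groups did not overlap for 19 of the 20, against 9.32% of all genes, but picking by p largely fixes that count. Of the 10 higher genes 7 were annotated as small nucleolar RNAs, a class that mostly guides modification of ribosomal and spliceosomal RNA. The 7 were AC150277.1, Snora68, Snord15a, SNORA12, snoU6-77, SNORA48 and SNORA73. Snora68 had 28.5, 15.02 and 22.7 CPM in siRNA + TTR REVERSIR libraries and 8.11, 12.8 and 9.72 CPM in siRNA + scrambled REVERSIR libraries. Its lowest library with the TTR sequence was close to the highest with the scrambled one. The 3 protein coding genes were Akap17b (log2 difference 0.70), Rg9mtd1, a subunit of mitochondrial RNase P (0.22), and Tnip2, an inhibitor of NF-kappaB signalling (0.42). Rg9mtd1 had 68.2, 67.1 and 67.0 CPM with the TTR sequence, against 58.2, 57.8 and 58.3 CPM with the scrambled one, a small difference with little spread in either group.

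The 10 lower genes were all protein coding. They were Plekhg2 (log2 difference -0.51), Plcl1, a catalytically inactive relative of phospholipase C (-1.002), Tstd1 (-1.10), Pi4k2a, a phosphatidylinositol kinase (-0.32), Neu3, a membrane sialidase (-0.49), Tarbp2 (-0.49), Atp11a, a phospholipid flippase (-0.31), Ccdc28b (-0.80), Klhl26 (-0.35) and C4b, complement component 4 (-0.19). C4b, the most abundant, had 1192, 1153 and 1152 CPM in siRNA + TTR REVERSIR libraries and 1309, 1375 and 1312 CPM in siRNA + scrambled REVERSIR libraries. Tstd1 shares exon bases with Usf1, Atp11a with Gm15347 and Gm15350, and Ccdc28b with 2510006D16Rik and Gm12965, so that their counts are uncertain. Plcl1, Tstd1 and Ccdc28b had levels under 5 CPM in all 6 libraries.

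**Figure D4:**
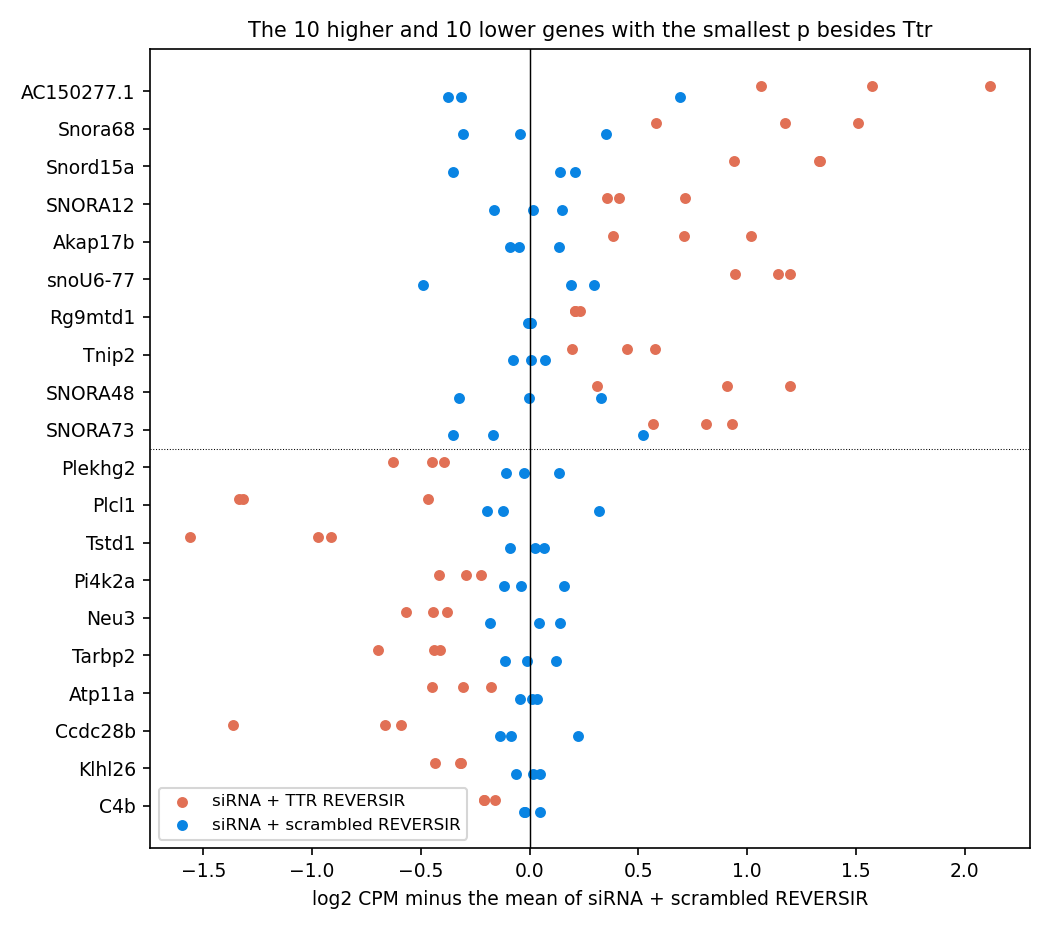
Log2 CPM of each of the 6 libraries, minus the mean of the siRNA + scrambled REVERSIR libraries, for the 10 higher and 10 lower genes with the smallest p besides Ttr. Each point is a library. Rg9mtd1 and C4b show narrow groups close to each other (log2 differences 0.22 and -0.19), and AC150277.1 wide groups far apart (1.56).

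The same change of REVERSIR sequence was also made in cells without siRNA, in 6 other libraries. There Ttr had 1357, 1083 and 1355 CPM with TTR REVERSIR and 1135, 1064 and 1154 CPM with scrambled REVERSIR. The groups overlapped, and the log2 difference was 0.18 ± 0.0896 (SE), with an interval of -0.0046 to 0.37 and an adjusted p of 0.698 (edgeR). The difference between both settings, tested as an interaction, was 2.04 ± 0.128 (SE) on the log2 scale, with an interval of 1.78 to 2.30 and an adjusted p of 3.28e-10 in edgeR. Ttr was the only gene to pass in the interaction (0.00897%), and 601 genes (5.39%) had an unadjusted p under 0.05.

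Without siRNA 2 genes passed in edgeR (0.0179%), both lower with the TTR sequence than with the scrambled one. An unadjusted p under 0.05 was found for 818 (7.33%). Aldh1a1, a retinaldehyde dehydrogenase, had 147, 139 and 132 CPM with TTR REVERSIR and 198, 229 and 218 CPM with scrambled REVERSIR, a log2 difference of -0.63 ± 0.101 (SE, adjusted p 0.0193). With siRNA present it had 169, 142 and 160 CPM with the TTR sequence, against 153, 158 and 173 CPM with the scrambled one, and differed by -0.04 ± 0.0926. Its groups overlapped only where siRNA was present. Serpina7 had 162, 207 and 156 CPM with TTR REVERSIR and 263, 278 and 282 CPM with scrambled REVERSIR, a log2 difference of -0.66 ± 0.111 (SE, adjusted p 0.0193), and differed by -0.07 ± 0.103 with siRNA present. With PBS, Aldh1a1 had 175, 145 and 178 CPM and Serpina7 178, 161 and 186 CPM. For both genes all libraries with scrambled REVERSIR alone lay above all PBS libraries, while those with TTR REVERSIR alone overlapped PBS. These differences from PBS were not tested. The interaction did not pass for Aldh1a1 (0.59, adjusted p 0.889 in edgeR) or Serpina7 (0.60, adjusted p 0.889), so the settings are not shown to differ for them. Both calls were lost in edgeR without scrambled REVERSIR replicate 2 (adjusted p 0.284 for each), scrambled REVERSIR replicate 3 (0.138 for each), TTR REVERSIR replicate 1 (0.0749 for Aldh1a1 and 0.368 for Serpina7) or TTR REVERSIR replicate 3 (0.285 for Aldh1a1 and 0.285 for Serpina7).

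Of the 9 other genes with the smallest p in the interaction, none passed in edgeR. Besides Aldh1a1 and Serpina7 they included Gm14420 (0.81 on the log2 scale), Hif1a, the oxygen-regulated transcription factor subunit (0.51), Hgfac, the activator of hepatocyte growth factor (-0.45), Dpysl2 (-0.81), Tnip2 (0.83) and Gm13699, a pseudogene (-0.73). For 8 of the 9 the difference without siRNA was larger in size than the one with it. Over all genes tested the median size was also larger without siRNA (0.119) than with it (0.067). The count is thus not shown to be particular to these genes. Over the 11152 genes other than Ttr, the log2 differences with and without siRNA, which share no library, had a Pearson correlation of 0.0872 and a Spearman correlation of 0.00986. These are descriptions across genes, which are not independent replicates.

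**Figure D5:**
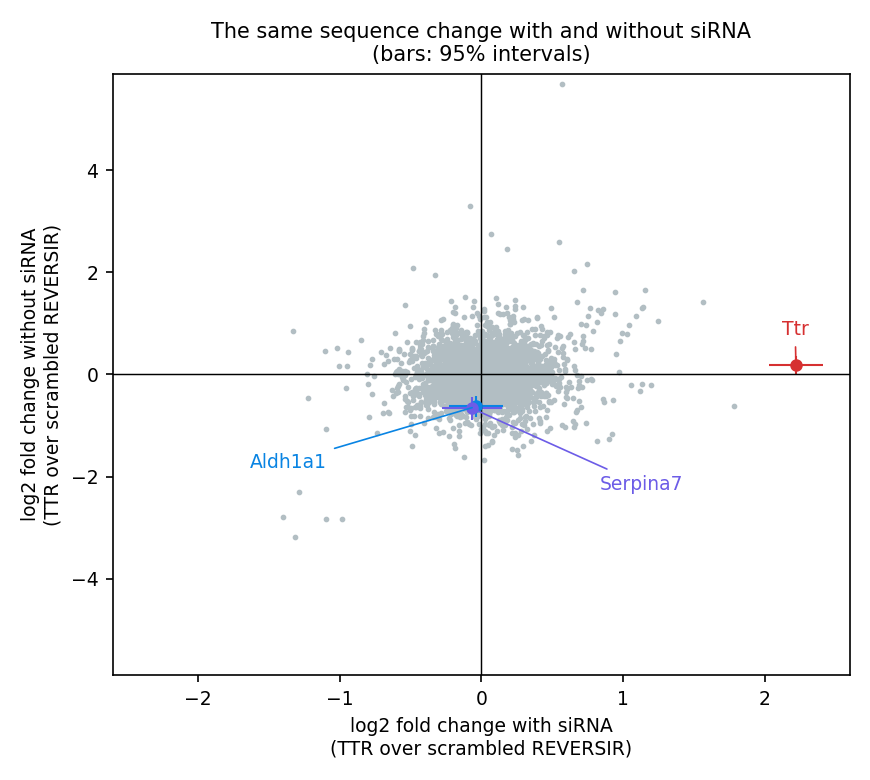
Log2 fold change of the TTR over the scrambled REVERSIR sequence with siRNA present (horizontal) and without siRNA (vertical, on its own scale) for the genes tested. Bars are 95% intervals for the 3 named genes. Ttr lies at 2.22 and 0.18, Aldh1a1 at -0.04 and -0.63, and Serpina7 at -0.07 and -0.66.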

How the data were processed

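For each of the 18 libraries the authors deposited a table of raw counts over 37991 Ensembl genes. The counts are whole numbers and replicates were not pooled. Reads were aligned with STAR to build NCBIM37 and analysed with DESeq2, per the submitters' processing notes, which give no versions. The sources used here do not state how reads were counted, on which strand or after which filter, so values of overlapping genes and of small nucleolar RNAs within host genes are uncertain. The authors' 5 tables of DESeq2 results, each against PBS, were not used. Groups followed the sample titles. Gene symbols, types, positions and exonic lengths came from an annotation of build NCBIM37, which named 37205 identifiers.

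All 18 libraries were fitted together with edgeR 4.0.16 in R 4.3.3 (filterByExpr by group, TMM scaling, quasi-likelihood test, Benjamini-Hochberg adjustment over 11153 genes, threshold 0.05), with 12 residual degrees of freedom, so that the 6 groups share 1 estimate of spread. The contrasts were the TTR against the scrambled sequence with siRNA, the same without siRNA, and their difference. Standard errors were derived from the fold change and the F statistic, and intervals are at 95%. CPM and TPM were computed here from the counts. Exact permutation tests were two-sided. The test was tried on simulated counts with known changes first. DESeq2 1.42.0, limma 3.58.1 (voom), other scalings and filters, fits of fewer libraries, a replicate block and leaving out each library were alternatives.

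The genes named were Ttr, genes past 0.05, the 10 higher and 10 lower genes with the smallest p at a mean log2 CPM of at least 1, the members with the smallest p of each list, the 10 genes with the smallest p in the interaction and the 10 most abundant. Some well known members were added after their values were seen, and some genes that the rule names are not reported here. The members and lists (448 symbols in 21 lists, 5 of them unmatched) were chosen with earlier results of these data known. Replicate counts differed by more than sampling noise within both groups (chi-square per degree of freedom 3.94 to 41.9), so no library was counted as a duplicate. Intervals of fold changes cover the spread between libraries along with the counting error of reads without molecular identifiers.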

Additional observations from a re-analysis of the deposited data

Results flagged for a closer look

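The effect of the REVERSIR sequence on Ttr differed between cells with and without siRNA. The interaction in edgeR was 2.04 on the log2 scale, with an adjusted p of 3.28e-10, between a difference of 2.22 with siRNA and 0.18 without it. With siRNA all 3 libraries with the TTR sequence were above all 3 with the scrambled one, and without siRNA the groups overlapped.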

How the results depend on the processing

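Ttr passed in all 20 alternatives run for the comparison with siRNA, with a log2 difference of 2.13 to 2.27 and an adjusted p of at most 1.22e-07 in any of them. Leaving out each library in turn gave the same range, 2.13 to 2.27. The count of genes past 0.05 was 1 in 19 of the 20, and 35 with no filter on low counts. In that fit the median prior degrees of freedom were infinite, against 12 with the filter, and the SE of Lars2 was 0.0762, against 1.14. The interaction called 1 gene in 25 of 26 alternatives and 21 with no filter. Without siRNA the count of 2 became 0 with library totals alone (421 at an unadjusted p under 0.05), 42 with no filter, 4 in a fit of only the libraries compared, and 5 in that fit with a replicate block. Leaving out 1 library there gave 0 to 5 (594 to 1217 at an unadjusted p under 0.05), with 5 without TTR REVERSIR replicate 2. The replicate block left Ttr at 2.22 and the count with siRNA at 1. Samples with the same number in the 2 groups did not deviate together (correlations -0.309, -0.0294 and -0.205 over 5000 genes, and 0 of 3 closest to its own number). Deviations from a mean of 3 libraries depend on one another, so these few values do not settle whether the numbers pair the samples. Alternatives without PBS replicates 1 and 2, without mitochondrial ribosomal RNA, and without small nucleolar and nuclear RNAs were chosen after seeing the data and left each count as it was. No value of another single gene changed sign past the threshold. Depth limits genes of low level, as the intervals show.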

Other observations

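Genes annotated as small nucleolar RNA, singled out after their values were seen, lay above 0 almost throughout. Of 49 tested, 48 had a positive log2 difference, with a median of 0.70, against -0.000339 for 10664 protein coding genes. None passed in edgeR with the filter on low counts. With no filter 20 did, among 35 calls over 20065 genes, in the fit with infinite median prior degrees of freedom. Of the 49, 28 had an unadjusted p under 0.05, all of them higher, against 2.17% of all genes. Groups did not overlap for 16, all higher, against 4.73% of all genes. Their summed level was 762, 685 and 859 CPM in siRNA + TTR REVERSIR libraries and 452, 627 and 414 CPM in siRNA + scrambled REVERSIR libraries. The 2 groups did not overlap. With siRNA alone the sum was 643 to 837 CPM, which overlapped siRNA + TTR REVERSIR and lay above siRNA + scrambled REVERSIR, and with PBS it was 331 to 674 CPM. Without siRNA the sum was 515 to 770 CPM with TTR REVERSIR and 318 to 566 CPM with scrambled REVERSIR, which overlapped, and the median log2 difference was 0.51. Over the alternatives the median with siRNA stayed between 0.59 and 0.84. Of 11 small nuclear RNA genes 10 had a positive log2 difference, with a median of 0.68, and 6 had an unadjusted p under 0.05, against 2.17% of all genes. Groups did not overlap for 2 of the 11, higher in each case, against 4.73% of all genes. Their summed level was 95.8 to 165 CPM in siRNA + TTR REVERSIR libraries and 50.7 to 108 CPM in siRNA + scrambled REVERSIR libraries, which overlapped. In edgeR 0 of the 11 passed with the filter and 4 with no filter, among the same 35 calls over 20065 genes. Mitochondrial ribosomal RNA took 2.05% to 6.69% of counts with the TTR sequence, against 2.34% to 9.56% with the scrambled one. The part of RNA handling in these differences was not tested.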
